A study of Oryza sativa with 8 samples.

Results

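Of 52795 rice gene loci on a custom expression array, 635 (1.20%) gave a signal well above background on all 4 arrays of the line Nipponbare and on none of the 4 arrays of the line Pokkali. They were chosen by the background flag of the scanner software. At least 1 probe of the locus had to be flagged well above background on every Nipponbare array, and no probe of it on any Pokkali array. Where a probe was printed many times, the majority of its spots decided. A locus flagged in this way is called bright below, and one not flagged is called dark. The difference between the lines is therefore how the loci were picked, and its size is given as a description without a test.

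The 8 arrays came from 4 groups of 2 biological replicates each: Nipponbare after 8 h in 250 mM NaCl, Nipponbare at 0 h, Pokkali after 8 h in 250 mM NaCl and Pokkali at 0 h. All plants were 14 days old, were raised in a greenhouse in natural light, and were taken as whole seedlings. Total RNA was labelled with 1 dye (Cy3), and each replicate had an array of its own. No seedlings kept for 8 h without salt were among these groups, so salt and time of day cannot be told apart. All arrays lay on 1 slide, with the lines in separate rows of it, so that line and slide row cannot be told apart either.

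Nipponbare is a japonica rice, and its genome is the one from which rice gene loci were named. Pokkali is an indica rice known for its tolerance of salt. Cultivated rices differ in which genes they carry, and genes present in only some lines are often found among disease resistance genes and transposons, which tend to lie in clusters. A locus name of the form LOC_Os11g45790 gives the chromosome and then a number that increases along it. The numbers were first given in steps of 10, and numbers in between went to gene models added later. Close numbers therefore mean close positions in Nipponbare, which says nothing about the order of genes in Pokkali. The files give no gene names or functions for these loci, and none are given here.

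The array was designed on the IRGSP5 build of the Nipponbare genome, per the file headers. On it, 40799 loci were bright on all 4 Nipponbare arrays, and the 635 loci were 1.56% of these. The opposite pattern, bright on all 4 Pokkali arrays and dark on all 4 Nipponbare arrays, was shown by 214 of the 40444 loci bright throughout Pokkali (0.529%). A further 38677 loci were bright on all 8 arrays and 5136 were dark on all 8. A probe that stays dark in Pokkali cannot tell apart a gene that is missing there, a gene that is silent there and a gene whose sequence no longer matches the probe. In RNA of whole seedlings, fewer cells with a transcript and less of it per cell cannot be told apart either. Between 81.0% and 85.5% of the spots of an array were bright.

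The loci with the strongest Nipponbare signal showed how far apart the lines could lie. LOC_Os01g58035 on chromosome 1 read 33757 and 31790 intensity units on the Nipponbare 8 h arrays and 41056 and 40173 on the Nipponbare 0 h arrays. The same probe read 2.51 and 2.67 on the Pokkali 8 h arrays and 3.34 and 2.66 on the Pokkali 0 h arrays. The dimmest probe that still counted as bright read between 11.4 and 15.3 on the 8 arrays, so the Pokkali readings had only an upper limit. Set against that limit, LOC_Os01g58035 was at least 2594-fold brighter in Nipponbare (1638-fold with the limit at the 5th percentile of bright probes, 477-fold with normexp). The bound divides the Nipponbare mean by the Pokkali mean after every Pokkali array was raised to the dimmest bright probe on it, on the log2 scale after scaling each array to its 75th percentile.

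LOC_Os02g24636 on chromosome 2 read 31802 and 30879 in Nipponbare at 8 h and 41841 and 38508 at 0 h, against 2.66 and 2.82 in Pokkali at 8 h and 9.86 and 6.30 at 0 h. Its bound was 2522-fold, and the 2 lines did not overlap on any array. LOC_Os07g40640 on chromosome 7 read 20362 and 20888 in Nipponbare at 8 h and 14769 and 14191 at 0 h, against readings between 4.99 and 7.59 in Pokkali. Its bound was 1229-fold. Both loci thus stayed under the limit in Pokkali at both times, which the rule largely asks for.

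LOC_Os11g06980 was the only one of the 10 brightest with a second probe. Its first probe read 17157 and 14121 in Nipponbare at 8 h and 15972 and 21238 at 0 h, and its other probe 16707 and 14218 at 8 h and 15606 and 21124 at 0 h. In Pokkali the first probe lay between 2.50 and 4.27 and the other between 2.61 and 7.90. Both probes gave nearly the same readings on each Nipponbare array, and the locus was at least 1197-fold brighter there. The remaining 6 of the 10 were LOC_Os01g71630 (at least 1171-fold), LOC_Os11g28600 (948-fold), LOC_Os05g36340 (746-fold), LOC_Os03g58320 (628-fold), LOC_Os06g38294 (536-fold) and LOC_Os10g12300 (527-fold). The bound of LOC_Os03g58320 was 401-fold without Nipponbare 8 h replicate 1. The bounds of the 10 ran from 527-fold to 2594-fold, and became 333-fold to 1638-fold with the limit at the 5th percentile and 96.1-fold to 477-fold with normexp. Over all 10, the lowest Nipponbare reading was 3237 and the highest Pokkali reading 10.8.

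**Figure D1:**
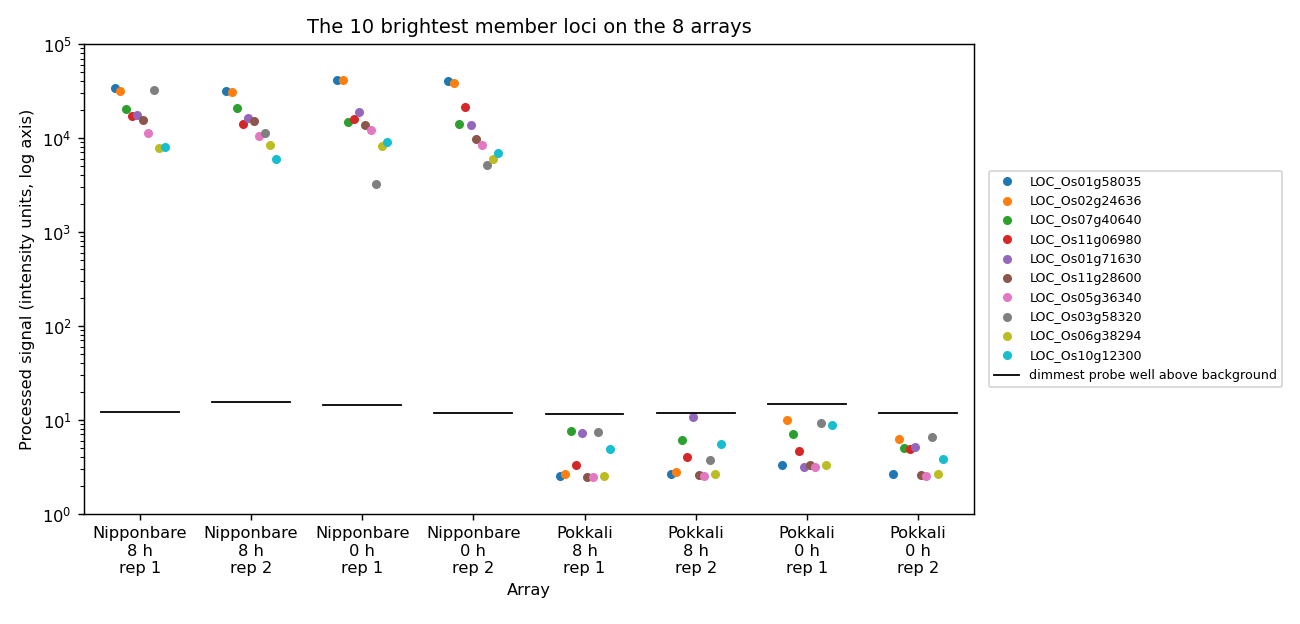
Processed signal (intensity units, log axis) of the 10 member loci with the highest Nipponbare mean, one point per locus on each of the 8 arrays; black bars mark the dimmest probe that was well above background on the array. All 40 Nipponbare points lie at 3237 or above, and all 40 Pokkali points lie at 10.8 or below, under the bar of their array.

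Most of the 635 loci were much dimmer than these. The median reading over the 635 loci was between 81.4 and 109 intensity units on the 4 Nipponbare arrays and between 2.91 and 4.12 on the 4 Pokkali arrays. Of any of the loci, the lowest Nipponbare reading was 12.4 and the highest Pokkali reading 16.9. As the rule largely requires, every Nipponbare array read higher than every Pokkali array at 634 of the 635 loci. The exception was LOC_Os12g39250, named after its values were seen, with 12.4 on the second Nipponbare 0 h array and 12.5 on the first Pokkali 0 h array.

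On the scaled log2 axis, on which 0 is the 75th percentile of an array, the Nipponbare mean of the 635 loci had a median of -3.21, with quartiles of -4.48 and -1.68 and a maximum of 5.44. The median for all loci bright on the 4 Nipponbare arrays was -1.50. Divided by Nipponbare signal into 4 equal parts, those bright loci held 324 of the 635 (51.0%) in the lowest part, 164 in the second, 90 in the third and 57 in the highest. The loci were thus concentrated at the dim end.

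**Figure D2:**
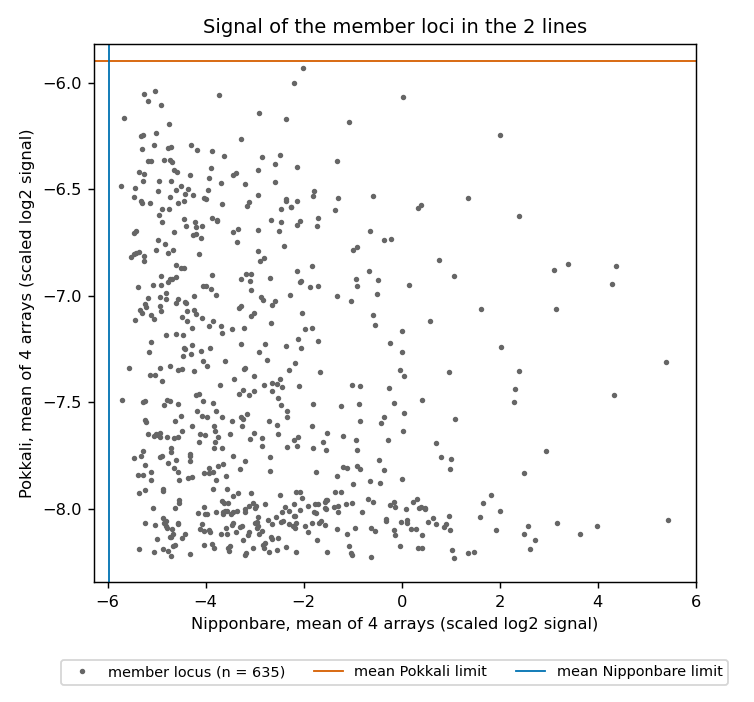
Mean scaled log2 signal of each of the 635 loci over the 4 Nipponbare arrays (horizontal) and the 4 Pokkali arrays (vertical); the lines mark the mean over arrays of the dimmest bright probe in each line. Nipponbare means reach 5.44 with a median of -3.21, and all Pokkali means lie under the Pokkali line.

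The bound on Nipponbare over Pokkali had a median of 6.45-fold over the 635 loci (quartiles of 1.42 and 4.22 on the log2 scale) and ran from 1.13-fold to 2594-fold. It was 2-fold or more at 551 loci, 4-fold or more at 400, 16-fold or more at 179, 64-fold or more at 66 and 256-fold or more at 21. The median bound was 6.70-fold from the 8 h arrays alone and 6.10-fold from the 0 h arrays alone. At 4 loci the 0 h bound was under 1, so no fold is given for them at that time. Among the 214 loci with the opposite pattern the median bound, Pokkali over Nipponbare, was 3.34-fold and the highest was 855-fold, and 18 of them (8.41%) reached 16-fold, against 179 of 635 (28.2%) here. Both sets were picked by their flags, so these shares describe them and were not tested. On each Pokkali array 96.4% to 99.1% of the 635 loci lay at or under the limit. Their bounds therefore mostly follow their Nipponbare signal. The median of the 635 was 2.69 log2 units, and became 2.03 with the limit at the 5th percentile of bright probes and 1.04 with normexp background correction.

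At the edge of the rule the lines lay close together. LOC_Os04g04460 read 13.6 and 16.7 in Nipponbare at 8 h and 20.5 and 13.7 at 0 h, against 8.21 and 6.62 in Pokkali at 8 h and 8.35 and 10.2 at 0 h, and its bound was 1.13-fold. LOC_Os10g05400 (1.14-fold) and LOC_Os02g52640 (1.17-fold) were next to it. Just outside the rule stood 267 loci that were bright on all 4 Nipponbare arrays and on 1 Pokkali array, and 185 that were bright on 3 Nipponbare arrays and no Pokkali array.

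Most of those outside were dim, with a median Nipponbare signal of -4.18 scaled log2 units for the 267 and -5.45 for the 185. The 3 with the highest Nipponbare mean are given here. LOC_Os03g03510 averaged (on the log scale) 7086 and 8162 over its 2 probes in Nipponbare at 8 h and 3980 and 11543 at 0 h, against 2.53 and 2.66 in Pokkali at 8 h and 7.62 and 2.67 at 0 h. It missed the rule because 1 of the probes read 17.7 on the first Pokkali 0 h array. LOC_Os10g02270 read between 3023 and 5308 in Nipponbare and reached 13.3 on 1 Pokkali array. LOC_Os09g17560 read 31241 and 50990 in Nipponbare at 8 h and 286 and 211 at 0 h, with 12.8 on 1 Pokkali 8 h array. A single dim reading thus kept these 3 loci out.

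The software has a second, weaker flag, which marks a spot as positive and significantly above its local background. On the Pokkali arrays this flag was set for 48.0% to 62.2% of the 635 loci, against 38.1% to 52.4% of the loci dark on all 8 arrays and 2.27% to 2.92% of the 308 negative control spots. It was set on no Pokkali array at 144 loci, on 1 at 88, on 2 at 99, on 3 at 115 and on all 4 at 189. Dark by the rule therefore did not mean that nothing was measured. With the weaker flag in both parts of the rule, 216 loci were found and no blocks, and 144 of them were among the 635. With the rule applied to the 0 h arrays only, 1480 loci were found. The larger the bound, the more often the weak signal was missing: no Pokkali array carried the flag at 5.95% of the 84 loci with a bound under 2-fold, 15.9% of the 151 from 2-fold to under 4-fold, 24.9% of the 221 from 4-fold to under 16-fold, 31.0% of the 113 from 16-fold to under 64-fold and 37.9% of the 66 at 64-fold or more.

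Spots printed many times showed how evenly the flag was set within an array. At 7 of the loci the probe was printed 15 or 16 times per array. Together 433 of 436 spots were bright on the Nipponbare arrays and 6 of 436 on the Pokkali arrays. The rule used the majority of these same spots on each array, so it largely set this split. For LOC_Os11g28600 all 60 spots were bright in Nipponbare and 0 of 60 in Pokkali, and the spots of an array differed by an SD of 0.089 to 0.11 log2 units in Nipponbare and 0.084 to 0.48 in Pokkali. For LOC_Os05g15300, the least clear of the 7 and named after its values were seen, 61 of 64 spots were bright in Nipponbare and 3 of 64 in Pokkali. Spots of an array share its RNA and are not replicates of a line.

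Different probes of the same locus did not always give the same answer. Among loci with 2 probes, 31 had at least 1 probe that was bright in Nipponbare and dark in Pokkali. Of these, 14 were among the 635, 8 with both probes showing the pattern and 6 with 1 probe showing it and the other dark in Pokkali but not bright throughout Nipponbare. LOC_Os01g38580 and LOC_Os02g27360 had the pattern on both probes, whereas LOC_Os01g28150, LOC_Os02g38780 and LOC_Os02g49332 had it on 1. For LOC_Os02g27360 the first probe read 666 and 1029 in Nipponbare at 8 h and 482 and 620 at 0 h, the other 618 and 1020 at 8 h and 522 and 588 at 0 h, and neither passed 3.36 in Pokkali. The 2 probes of that locus thus moved together over the Nipponbare arrays.

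At the other 17 loci the second probe did not have the pattern by its flags. In 11 of them the other probe was bright on all 4 Pokkali arrays, and in 6 it was bright on 1 to 3. Across those 6, the other probe's difference, Nipponbare minus Pokkali, was 10.6 log2 units at LOC_Os03g03510, 6.24 at LOC_Os04g30250 and 5.47 at LOC_Os01g25189. It was 2.89 at LOC_Os09g29950, 2.43 at LOC_Os07g35750 and -0.21 at LOC_Os08g14640. The 3 examples that follow are from the 11 and were chosen after their values were seen. At LOC_Os11g07980 the dark probe read 1047 and 1101 in Nipponbare at 8 h and 624 and 411 at 0 h, against at most 7.71 in Pokkali, while the other probe read between 687 and 874 in Nipponbare and between 600 and 742 in Pokkali. At LOC_Os10g10130 the dark probe read between 538 and 786 in Nipponbare and at most 2.94 in Pokkali, while the other read between 94.5 and 123 in Nipponbare and between 45.2 and 179 in Pokkali. At LOC_Os05g15510 the dark probe read 518 and 405 in Nipponbare at 8 h and 1799 and 1753 at 0 h, against at most 3.39 in Pokkali, while the other read 328 and 209 in Pokkali at 8 h and 1125 and 1093 at 0 h. At each of these loci 1 probe was thus bright in Pokkali and the other dark.

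Over the 11 loci, the second probe's difference, Nipponbare minus Pokkali, ran from -1.23 to 1.55 log2 units with a median of 0.11, and was higher in Pokkali at 5. Loci with 2 probes were 2.20% of the 635, against 5.39% of the loci bright throughout Nipponbare. The rule asks more of a locus with 2 probes, since both must be dark in Pokkali. All other members rest on 1 probe each.

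**Figure D3:**
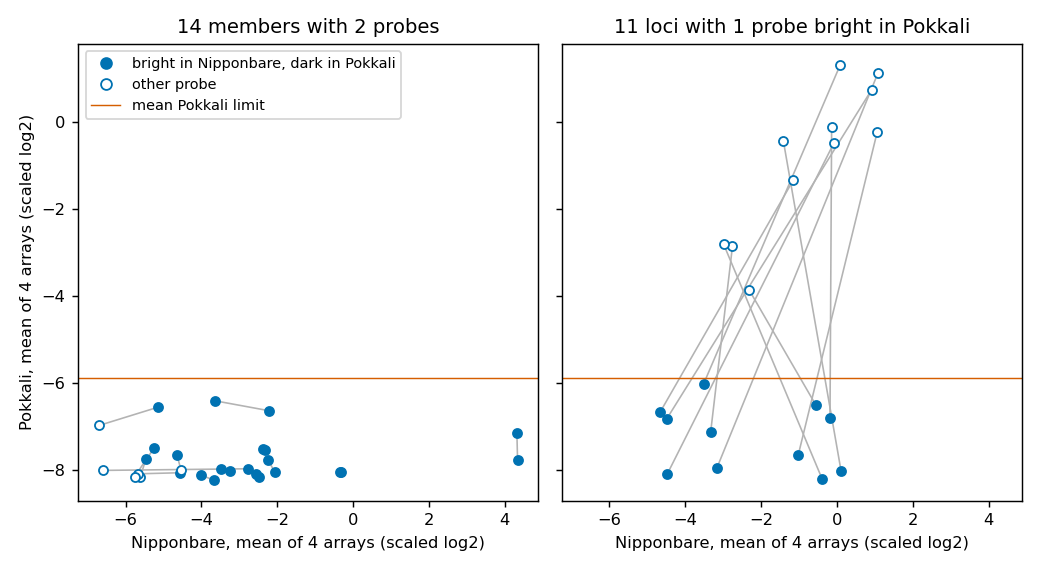
Mean scaled log2 signal in Nipponbare (horizontal) and Pokkali (vertical) of the 2 probes of a locus, joined by a line: 14 of the 635 loci (left) and 11 loci left out because 1 probe was bright on all 4 Pokkali arrays (right). Filled points are probes bright in Nipponbare and dark in Pokkali. On the right, the open points lie well above the Pokkali line while their filled partners lie under it.

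The loci were spread over all 12 chromosomes but not evenly. Chromosome 11 held 85 of them, 3.01% of its loci bright throughout Nipponbare, and chromosome 12 held 60 (2.12%). The lowest shares were 1.08% on chromosome 1 (55 loci), 1.09% on chromosome 2 (45), 1.11% on chromosome 5 (37) and 1.13% on chromosome 3 (49). The other 6 chromosomes lay between 1.27% and 1.86%. Chromosome 11 also had the highest median bound, 11.1-fold against 4.73-fold to 8.45-fold on the other chromosomes, and 34 of its 85 loci reached 16-fold. For the opposite pattern the shares ran from 0.243% on chromosome 2 to 0.833% on chromosome 10, with 0.764% on chromosome 11.

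Each chromosome was then cut into 10 segments with equal numbers of array loci, in order of locus number. The share of bright loci that were among the 635 had a median of 1.42% over the 120 segments. It was highest, 4.87%, in the first segment of chromosome 10 (LOC_Os10g01006 to LOC_Os10g04740, 11 of 226), followed by 4.74% in the seventh segment of chromosome 8 (LOC_Os08g28510 to LOC_Os08g32820, 13 of 274). It exceeded 3% in 17 segments, of which 7 lay on chromosome 11, and 3 segments held none. The high segments of chromosome 11 ran along most of its length and were not limited to 1 end.

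**Figure D4:**
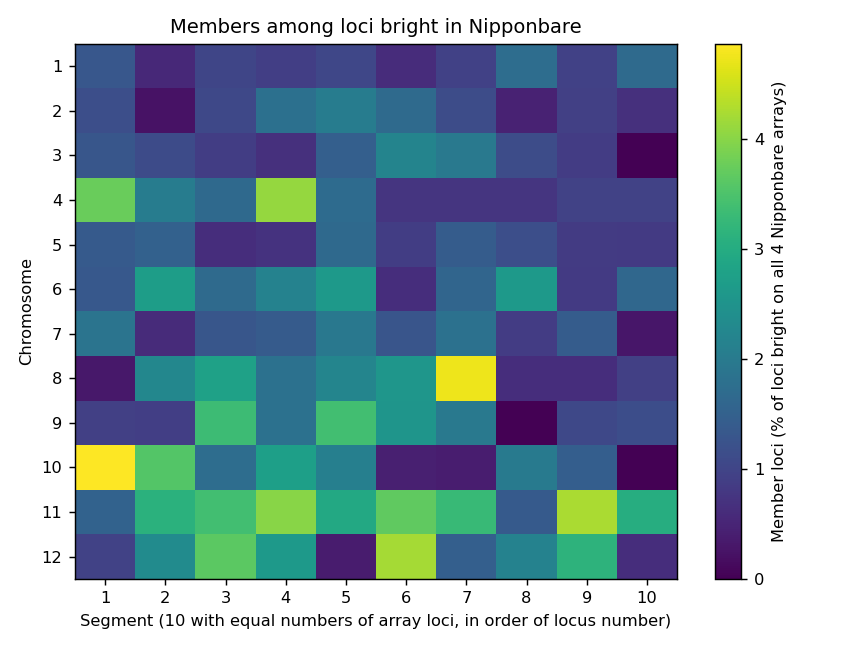
Share of the loci bright on all 4 Nipponbare arrays that were dark on all 4 Pokkali arrays (%), for each of 10 segments of a chromosome with equal numbers of array loci, in order of locus number. Of the 17 segments over 3%, 7 are on chromosome 11; the highest value, 4.87%, is in the first segment of chromosome 10.

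Members were more frequent around each other than around bright loci in general, though most neighbours were not members. Among the 5 nearest array loci on each side, an average of 2.74% were themselves among the 635, against 1.15% around all loci bright throughout Nipponbare. Without chromosome 11 the values were 2.15% and 1.08%, and on chromosome 11 alone 6.59% and 2.15%. Around the 214 loci with the opposite pattern, 0.280% of neighbours had that pattern, against 0.406% around all loci of the array. Neighbours were also less often bright on all 8 arrays (67.5% against 74.3%) and more often dark on all 8 (11.5% against 9.25%) than around bright loci in general. The opposite set was alike in this, with 68.9% of neighbours bright and 12.01% dark on all 8. Neighbouring loci are not independent of each other, and none of these differences was tested.

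Of the 635 loci, 45 (7.09%) stood directly beside another of them in the order of array loci, in 18 runs of 2 and 3 runs of 3. The opposite set had 2 such loci (0.935%). Members at most 100 apart in locus number were joined, and 3 or more joined members were called a block. This gave 20 blocks with 68 loci (10.71%), against 1 block with 3 loci (1.40%) in the opposite set. The opposite set is smaller, and loci of a smaller set lie close together less often by number alone. Its shares in blocks and directly beside each other therefore cannot be compared with those of the 635. No share in blocks is given for bright loci in general, so whether 10.71% is high was not tested. Chromosome 11 had 7 of the 20 blocks, with 25 loci. Of the others, 4 were on chromosome 6, 3 on chromosome 4, 2 each on chromosomes 9 and 12 and 1 each on chromosomes 7 and 8. Chromosomes 1, 2, 3, 5 and 10 had none. The number of blocks depended on the join, with 9 blocks at a step of 50 and 34 at a step of 200.

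The block with the most members ran from LOC_Os11g45790 to LOC_Os11g45930 on chromosome 11 and held 6 of the 14 array loci between its ends. LOC_Os11g45790, the brightest, read 1795 and 1330 in Nipponbare at 8 h and 1866 and 1034 at 0 h, against 3.05 and 2.54 in Pokkali at 8 h and 4.87 and 3.60 at 0 h, a bound of 104-fold. LOC_Os11g45930 at the far end read 140 and 109 in Nipponbare at 8 h and 322 and 142 at 0 h, against 2.35 and 2.43 in Pokkali at 8 h and 3.03 and 2.41 at 0 h, a bound of 11.6-fold. The remaining 4 were LOC_Os11g45809 (15.8-fold), LOC_Os11g45850 (40.7-fold), LOC_Os11g45864 (2.86-fold) and LOC_Os11g45880 (10.8-fold). The block was not dark throughout in Pokkali: of its 8 other loci, 6 were bright on all 8 arrays. One of these, LOC_Os11g45890, lay directly beside LOC_Os11g45880 and had a scaled log2 signal of 6.40 in Nipponbare and 4.73 in Pokkali. It was chosen after its values were seen.

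The block on chromosome 8 from LOC_Os08g31780 to LOC_Os08g31920 had 4 members among 16 array loci, with the highest bounds of the 5 blocks with the most members. LOC_Os08g31910 read 4844 and 3502 in Nipponbare at 8 h and 6504 and 4586 at 0 h, against 2.36 and 2.49 in Pokkali at 8 h and 3.08 and 2.73 at 0 h, a bound of 337-fold. LOC_Os08g31920 beside it read 673 and 473 in Nipponbare at 8 h and 878 and 652 at 0 h, against 4.61 and 2.58 in Pokkali at 8 h and 3.17 and 6.02 at 0 h, a bound of 46.5-fold. LOC_Os08g31780, the first member, had a bound of 25.9-fold. Between them 11 of the 12 other loci were bright on all 8 arrays, with differences, Nipponbare minus Pokkali, from -0.59 to 1.89 log2 units and a median of -0.07. Members were thus set among loci bright in both lines.

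The block on chromosome 11 from LOC_Os11g34770 to LOC_Os11g34920 held 4 of 16 array loci. LOC_Os11g34770 was its first and brightest member, with 264 and 227 in Nipponbare at 8 h and 890 and 601 at 0 h, against 6.93 and 6.71 in Pokkali at 8 h and 4.45 and 9.59 at 0 h, and a bound of 30.1-fold. LOC_Os11g34920, the last, had a bound of 6.73-fold. Of its 12 other loci, 10 were bright on all 8 arrays.

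Of the 5 blocks with the most members, those on chromosomes 4 and 12 had the lowest median bounds. From LOC_Os04g05480 (3.63-fold) to LOC_Os04g05590 (13.2-fold) there were 4 members among 12 array loci, and the brightest, LOC_Os04g05550, read 202 and 178 in Nipponbare at 8 h and 272 and 177 at 0 h, against 10.5 and 3.17 in Pokkali at 8 h and 9.29 and 2.85 at 0 h (14.5-fold). From LOC_Os12g25130 to LOC_Os12g25380 (3.17-fold) there were 5 members among 24 array loci. LOC_Os12g25130 was both the first and the brightest of these, with 86.0 and 58.4 in Nipponbare at 8 h and 192 and 151 at 0 h, against 2.50 and 2.60 in Pokkali at 8 h and 3.25 and 2.59 at 0 h (7.81-fold). In that block 14 of the 19 other loci were bright on all 8 arrays, so members were a minority of the loci between its ends.

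In 2 blocks the members followed each other with no other array locus between them. LOC_Os11g10540, LOC_Os11g10550 and LOC_Os11g10560 had bounds of 61.7-fold, 7.90-fold and 41.0-fold. LOC_Os06g09970, LOC_Os06g09980 and LOC_Os06g09990 had bounds of 2.23-fold, 31.3-fold and 16.9-fold. These 2 runs were named because they are the blocks without a gap, which was seen in the data.

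The other loci between the ends of the 20 blocks included 113 that were bright on all 8 arrays. Their median difference, Nipponbare minus Pokkali, was -0.04 log2 units, near the -0.10 of all 38673 such loci with values. At 20 of them (17.7%) Nipponbare was at least 2-fold brighter, and at 6 (5.31%) Pokkali was, against 6.37% and 5.59% of all loci bright on the 8 arrays. Large differences inside the blocks were thus more often in favour of Nipponbare, although the median was near 0. This was not tested.

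**Figure D5:**
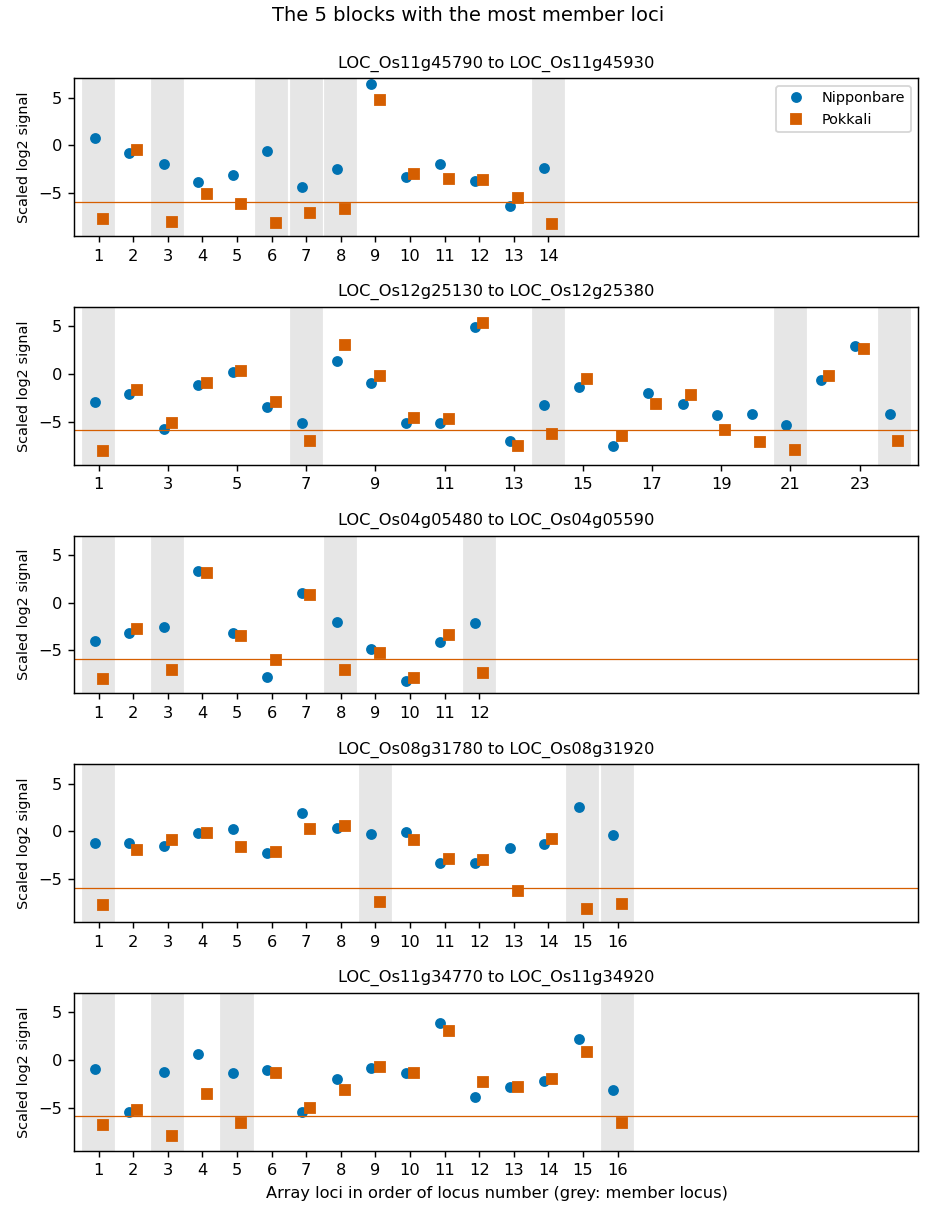
Mean scaled log2 signal in Nipponbare (circles) and Pokkali (squares), 4 arrays each, at every array locus of the 5 blocks with the most members, in order of locus number; grey marks the members and the thin line the mean Pokkali limit. Loci bright in both lines lie between members, such as 6 of the 8 other loci in the block from LOC_Os11g45790 to LOC_Os11g45930. Some members stand directly side by side.

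Gene models with in-between numbers were common among the 635. The locus number was not a multiple of 10 at 93 of them (14.6%), against 6.63% of the loci bright throughout Nipponbare, 6.28% of all array loci and 11 of the 214 loci (5.14%) with the opposite pattern. The share grew with the bound, with 5.95% under 2-fold, 8.61% from 2-fold to under 4-fold, 16.3% from 4-fold to under 16-fold, 20.4% from 16-fold to under 64-fold and 24.2% at 64-fold or more. It also grew with the signal. In the 4 parts of rising Nipponbare signal it was 10.8%, 15.2%, 21.1% and 24.6% among the 635, against 5.21%, 5.82%, 6.63% and 8.84% among all bright loci. The share was above that of bright loci in each of the 4 parts. The trends with bound and with signal are not separate results, since the bound mostly follows the Nipponbare signal. LOC_Os01g58035 and LOC_Os02g24636, the brightest pair, both have such numbers.

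The comparison of 8 h with 0 h in Nipponbare was not used to pick the loci and was tested with limma over all 45412 loci that passed the filter on dim probes. All 635 loci passed that filter, and each was bright at both times by the rule. At an adjusted p under 0.05, 81 of them (12.8%) were higher at 8 h and 53 (8.35%) were lower. Of all loci tested, 14.0% were called higher and 12.3% lower, and of the loci bright throughout Nipponbare 14.4% and 11.8%. The shares called among the 635 were thus below those of bright loci in both directions in this fit. The spread in it was shared with the Pokkali arrays, on which the 635 were dark by the rule. With the 4 Nipponbare arrays alone the gap was smaller, at 10.2% against 10.8% higher and 8.19% against 9.31% lower. The 19 alternatives were not all separate, since the deposited series values repeated the main ones. Leaving out either Pokkali array of a time also gave the same counts. For lower calls the share of the 635 was below that of bright loci in all 19 alternatives. For higher calls the share of the 635 was above that of bright loci in 4 of them: 23.3% against 17.5% with normexp background correction, 15.6% against 11.9% without Nipponbare 0 h replicate 1, 20.2% against 16.9% without 0 h replicate 1 of both lines, and 4.41% against 4.33% without Nipponbare 8 h replicate 2. In the 4 parts of rising signal, 17.6%, 23.2%, 24.4% and 29.8% of them were called in either direction, against 15.3%, 25.1%, 30.1% and 34.5% of all bright loci.

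The median change of the 635 loci was 0.16 log2 units, against 0.07 for loci bright throughout Nipponbare and 0.05 for all loci tested. Without Nipponbare 0 h replicate 2 the order turned, with 0.0048 for the 635 and 0.04 for bright loci. The changes called higher ran from 1.55-fold to 74.7-fold with a median of 2.62-fold, and 23 of them were 4-fold or more. Those called lower ran from 1.46-fold to 34.9-fold with a median of 2.74-fold, and 15 were 4-fold or more. At all 134 called loci both 8 h arrays lay on the same side of both 0 h arrays. No share over all called loci is given beside it, so this count adds no support to the calls. Without scaling between arrays the counts were 47 higher and 70 lower, so that 40.2% of the calls were higher in place of 60.4%; the median of all loci then moved to -0.17 log2 units. Without Nipponbare 0 h replicate 2 there were 38 higher and 34 lower, without Nipponbare 8 h replicate 1 there were 33 and 30, and without Nipponbare 8 h replicate 2 there were 28 and 17. The loci called higher numbered 148 with normexp, 128 without 0 h replicate 1 of both lines and 50 without 0 h replicate 2 of both lines (7.87%, against 10.3% of bright loci), the last 2 settings being chosen after seeing the data.

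The largest rise among the 635 was at LOC_Os10g02840, which read 4704 and 7906 in Nipponbare at 8 h and 100 and 89.8 at 0 h, a log2 change of 6.22 (SE 0.29, from 2 arrays at each time, limma adjusted p = 0.000621). In Pokkali it read 2.42 and 2.55 at 8 h and 3.14 and 2.52 at 0 h. The rule asked for dark readings there, so these say nothing about a response of Pokkali to salt. LOC_Os01g71624 read 15059 and 19041 at 8 h and 344 and 216 at 0 h, a log2 change of 6.17 (SE 0.25, adjusted p = 0.000518 by limma). It stands directly before LOC_Os01g71630, one of the 10 brightest, which read 17399 and 16132 at 8 h and 18999 and 13794 at 0 h (log2 change 0.27, SE 0.33, adjusted p = 0.588). One of these neighbours was thus called and the other was not; the difference between them was not tested.

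The largest fall among them was at LOC_Os10g01920, which read 63.0 and 23.4 at 8 h and 1665 and 1459 at 0 h, a log2 change of -5.13 (SE 0.40, adjusted p = 0.0014 by limma). LOC_Os01g22780 read 33.0 and 29.5 at 8 h and 264 and 807 at 0 h, a log2 change of -3.67 (SE 0.61, adjusted p = 0.00843 by limma). The call at LOC_Os01g22780 was lost without Nipponbare 8 h replicate 2 (log2 change -3.65, limma adjusted p = 0.0548, in a range of 0.00464 to 0.0548 over all alternatives). Its change was -2.80 without Nipponbare 0 h replicate 2, -4.55 without Nipponbare 0 h replicate 1 and -2.22 with normexp. That of LOC_Os10g01920 was -4.47 without Nipponbare 8 h replicate 2, -5.78 without Nipponbare 8 h replicate 1 and -3.68 with normexp, and the rise at LOC_Os10g02840 was 5.52 with normexp. LOC_Os10g01920 and LOC_Os01g22780 stayed bright at 8 h, as the rule asks. The limit in Nipponbare at 8 h was 12.1 on replicate 1 and 15.3 on replicate 2. The reading nearest to it was the 23.4 of LOC_Os10g01920 on replicate 2.

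Of the 10 brightest loci, 2 were called, both higher. In the highest of the 4 signal parts, 34.5% of all bright loci were called in either direction. Of the 68 loci in blocks, 8 were called higher and 5 lower (11.8% and 7.35%), and of the 567 outside blocks 73 and 48 (12.9% and 8.47%). Among all loci bright throughout Nipponbare, 14.4% were called higher and 11.8% lower. Of the 24 pairs of directly neighbouring members, 1 pair had both loci called higher, 1 had both called lower, and none had calls in opposite directions. No such count is given for neighbouring pairs of all bright loci, so it cannot be read as a shared response of neighbours.

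The replicates of the 635 loci were further apart than those of other bright loci. Their SD, from the replicate differences over loci, was 0.50 log2 units at 0 h and 0.30 at 8 h, against 0.41 and 0.25 for all loci bright throughout Nipponbare. The second Nipponbare 0 h array lay below the first by a median of 0.26 log2 units at the 635 loci and by 0.05 at all bright loci. The median SE of the change was 0.33 here and 0.22 for bright loci. That SE also draws on the Pokkali arrays. The 635 were dimmer in Nipponbare (median scaled log2 signal -3.21 against -1.50), and these comparisons were not matched for signal. In Pokkali the 635 loci were dark at both times, so their change there could not be measured.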

How the data were processed

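The deposited scanner tables hold the processed intensity of each spot. The authors ran Feature Extraction 10.7.1.1, and the values are background-subtracted within each array and not scaled between arrays, per the file headers. The deposited flags (well above background, positive and significant, saturated, outlier, control) are 0 or 1 and of a kind other than a measurement. Values in the deposited series table were identical to these (100% of values equal within a relative tolerance of 1e-05).

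Control spots and outlier-flagged spots were left out (156 to 247 of 61657 non-control spots per array). The log2 intensity was shifted to put the 75th percentile of each array at 0, and spots of a probe were averaged (459 probes were repeated). A probe was kept if both arrays of any group flagged it bright (47560 of 55078), and probes of a locus were averaged to give 45412 loci. For the rule, over 0.5 of the spots of a repeated probe had to carry the flag; 1 further locus is not reported here. Of the 635 loci, 0 were saturated on any array. For 1 Nipponbare 8 h sample the labels disagree on the replicate number, and its title was followed. The model had a mean for each of the 4 groups and no replicate block (limma 3.58.1, R 4.3.3; 4 residual and 2.36 prior degrees of freedom), with two-sided tests and Benjamini-Hochberg adjustment over all loci. The fit was tested on simulated data. The number of arrays limits the precision.

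The loci, the block rule and the lists were chosen with earlier results of these data known. The named loci are the 10 brightest, the largest changes in Nipponbare among called loci (8 per direction by the rule, of which 2 are printed, since the loci have no names), the first, last and brightest member of the 5 blocks with the most members, 5 members with 2 probes, and the 3 loci nearest the rule's edge on each side; others are said to be chosen later. Alternatives covered the rule, the flag, the block settings, the limit for dark probes, background correction (normexp with an offset of 50, on the median signal since the files hold no mean signal), scaling, filter, probes, samples and each replicate.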

Additional observations from a re-analysis of the deposited data

How the results depend on the processing

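The number of loci was 216 with the positive and significant flag (144 of them among the 635) and 1480 from the 0 h arrays only, and 642 to 756 when an array was left out. The 20 blocks became 0 with the positive and significant flag, 85 from the 0 h arrays only, 33 from the 8 h arrays only, 9 at a step of 50, 34 at a step of 200 and 2 with at least 5 members, and 20 to 27 when an array was left out. The share in blocks was 0%, 20.7% (0 h arrays), 4.88% (step of 50), 18.4% (step of 200), 1.73% (at least 5 members) and 10.1% to 12.3% with an array left out. Loci called higher at 8 h numbered 148 with normexp (23.3%, against 17.5% of bright loci), 47 without scaling (7.40% against 8.46%), 128 without 0 h replicate 1 of both lines (20.2% against 16.9%), 50 without 0 h replicate 2 of both lines (7.87% against 10.3%; both chosen after seeing the data) and 28 to 99 with an array left out, and those called lower 17 to 57. Their median change was -0.056 without scaling, 0.0048 without 0 h replicate 2 of both lines and 0.0048 to 0.27 with an array left out. The median bound was 2.03 log2 units with the limit at the 5th percentile of bright probes, 1.04 with normexp, 2.88 without scaling and 2.65 to 2.74 with an array left out. The cause of these shifts was not tested. With the replicate number as a block, 95 were higher and 53 lower; replicate differences at 8 h and 0 h correlated at 0.11 in Nipponbare and 0.08 in Pokkali. Between the lines they correlated at 0.54 at 0 h and 0.22 at 8 h, so arrays of the same number and time deviated together; the labels give no shared plant, batch or day. A slide block could not be fitted on 1 slide. Signal near the background limits the dim loci.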
